A study of Mus musculus with 6 samples.

Results

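The genes described here encode the protein machinery of the DNA replication fork other than the MCM helicase. They were chosen by name: a list of 45 gene symbols covers the origin recognition complex and geminin, the kinase that fires origins, the GINS complex, the replicative DNA polymerases, the sliding clamp and its loader, replication protein A, Okazaki fragment processing, fork protection and the deposition of chromatin behind the fork. Of these symbols 44 had a row among the 18001 genes of the expression table, and Gins2 was not analysed here. The list was drawn up with earlier results of these data known. The cells were NIH/3T3, a fibroblast line from mouse embryos that divides without limit in culture. They were transfected for 48 h with non-targeting control siRNAs (siCtrl) or with a pool of Aldoa-targeting siRNAs (siAldoa). Poly(A) RNA from 3 replicates of each group was sequenced. Aldoa encodes aldolase A, a glycolytic enzyme. The control cells received siRNAs too, so both groups share the transfection. One cell line, 1 siRNA treatment per group and 1 time point were measured. The study asked how Aldoa depletion alters transcription in these cells, with ribosome biogenesis as its subject, and the replication genes were measured in the same libraries.

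Each time a cell copies its genome, the origin recognition complex marks the start sites, kinases and the GINS complex switch on the helicase, and DNA polymerase alpha-primase lays down primers. DNA polymerase epsilon then extends the leading strand and DNA polymerase delta the lagging strand, both held on DNA by the ring-shaped clamp PCNA, which replication factor C loads. Okazaki fragments are trimmed and ligated, replication protein A covers the exposed single strands, and chromatin and DNA methylation are restored on the new DNA. Many of these genes are transcribed around the G1 to S transition under control of E2F factors, and fibroblast lines that divide in culture express them.

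Libraries held 3692341 to 3771129 recovered reads, and 3 reads in a library corresponded to 0.786 to 0.822 CPM, the reads of a gene scaled to library size. Aldoa itself was at 522, 536 and 545 CPM in siCtrl replicates 1, 2 and 3 and at 62.9, 69.2 and 72.0 CPM in siAldoa replicates 1, 2 and 3, so the siAldoa libraries kept 12.7% of the control level (log2 fold change -2.96, standard error 0.052, limma adjusted p = 1.3e-21). All 12 fibroblast markers had a row, and they summed to 17768 to 18326 CPM in siCtrl and 15302 to 16003 CPM in siAldoa. Members went both ways. Of the 12, 6 were called lower, Col1a2 at -0.44 and Col1a1 at -0.33 among them (log2 fold change, limma adjusted p under 0.05). Another 4 were called higher, namely Pdgfrb at 1.14, Pdgfra at 0.50, Fn1 at 0.30 and Thy1 at 0.23. Beside these counts stand shares of 10.0% lower and 10.4% higher among all genes. The 4 epithelial markers in the table summed to 18.6 to 19.7 CPM in siCtrl and 7.86 to 14.2 CPM in siAldoa, with Krt18 at 0 in all siAldoa libraries. The 6 immune markers in the table summed to 14.8 to 22.2 CPM in siCtrl and 21.6 to 25.9 CPM in siAldoa, and the 4 endothelial markers to 7.94 to 8.995 CPM and 4.01 to 7.83 CPM. Replicates 1 and 2 of a group stood closer to each other (chi-square per degree of freedom 1.12 in siCtrl and 1.11 in siAldoa) than either did to replicate 3 (1.97 to 3.03). Counting error alone gives a value of 1, so replicates 1 and 2 differed by little more than that. How independent the replicates of a group were was not tested. Between groups, siCtrl replicate 3 was nearer to siAldoa replicate 3 (5.27) than to siAldoa replicates 1 and 2 (6.78 and 6.53), and siCtrl replicates 1 and 2 were nearer to siAldoa replicates 1 and 2 (4.91 to 5.16) than to siAldoa replicate 3 (6.22 to 6.23). No label names a batch that sets replicate 3 apart, and why it stood apart was not tested. Its part in the results was followed only by values within each replicate number, fits without it and a fit with replicates 1 and 2 averaged.

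Upon Aldoa knockdown, the replication fork genes were lower as a group of named genes, by modest amounts for most of them. Of the 44 genes, 25 were lower and 0 higher in siAldoa, and 19 did not pass the test (limma on log2(CPM + 1) values with a trend of variance on mean, two-sided, Benjamini-Hochberg adjusted p under 0.05 over all 18001 genes). Over all genes 10.0% were called lower and 10.4% higher. Among the other 11125 genes with mean expression in the same range, 14.1% were called lower and 14.7% higher. At an unadjusted p under 0.05, 33 of the 44 were lower and 1 was higher, compared to 15.1% and 15.5% of all genes. The estimate was negative for 41 genes and positive for 3, and the median log2 fold change was -0.29, compared to -0.0023 over all genes. Every siAldoa library lay below every siCtrl library for 32 of the 44, a pattern that 17.1% of all genes showed, and above every siCtrl library for 1, a pattern of 16.7% of all genes. The summed expression of the 44 genes was 3576, 3607 and 3624 CPM in siCtrl and 2987, 2899 and 2951 CPM in siAldoa, with no overlap. In bulk RNA, fewer cells in S phase and less RNA per cell cannot be told apart.

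Leaving out any pair of same-numbered libraries lowered the number of fork genes called: 13 were called without replicate 1 of both groups (3.84% of all genes were then called lower), 9 without replicate 2 (3.54%) and 11 without replicate 3 (2.89%), while the median log2 fold change stayed between -0.32 and -0.26 over all omissions of libraries. edgeR's quasi-likelihood test on recovered reads (10.4% of all genes lower) called the same 25 genes, plus Pold3 (adjusted p = 0.044) and Rfc1 (adjusted p = 0.037), and DESeq2 (6.21% of all genes lower) called 19 of the 25. Without the trend of variance on mean, limma called 11 of the 25 (3.42% of all genes lower). Uhrf1, Lig1, Timeless, Pole, Wdhd1, Pold2, Pola1 and Dnmt1 were called in all 19 alternative fits. Beside these 8, only Gins1, Rfc2 and Rpa3 were called without that trend. Within each replicate number the median difference between siAldoa and siCtrl was -0.23, -0.27 and -0.35 on the log2(CPM + 1) scale for replicates 1, 2 and 3, and 40, 39 and 42 of the 44 genes were lower, compared to 51.4%, 51.3% and 52.1% of all genes.

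**Figure D1:**
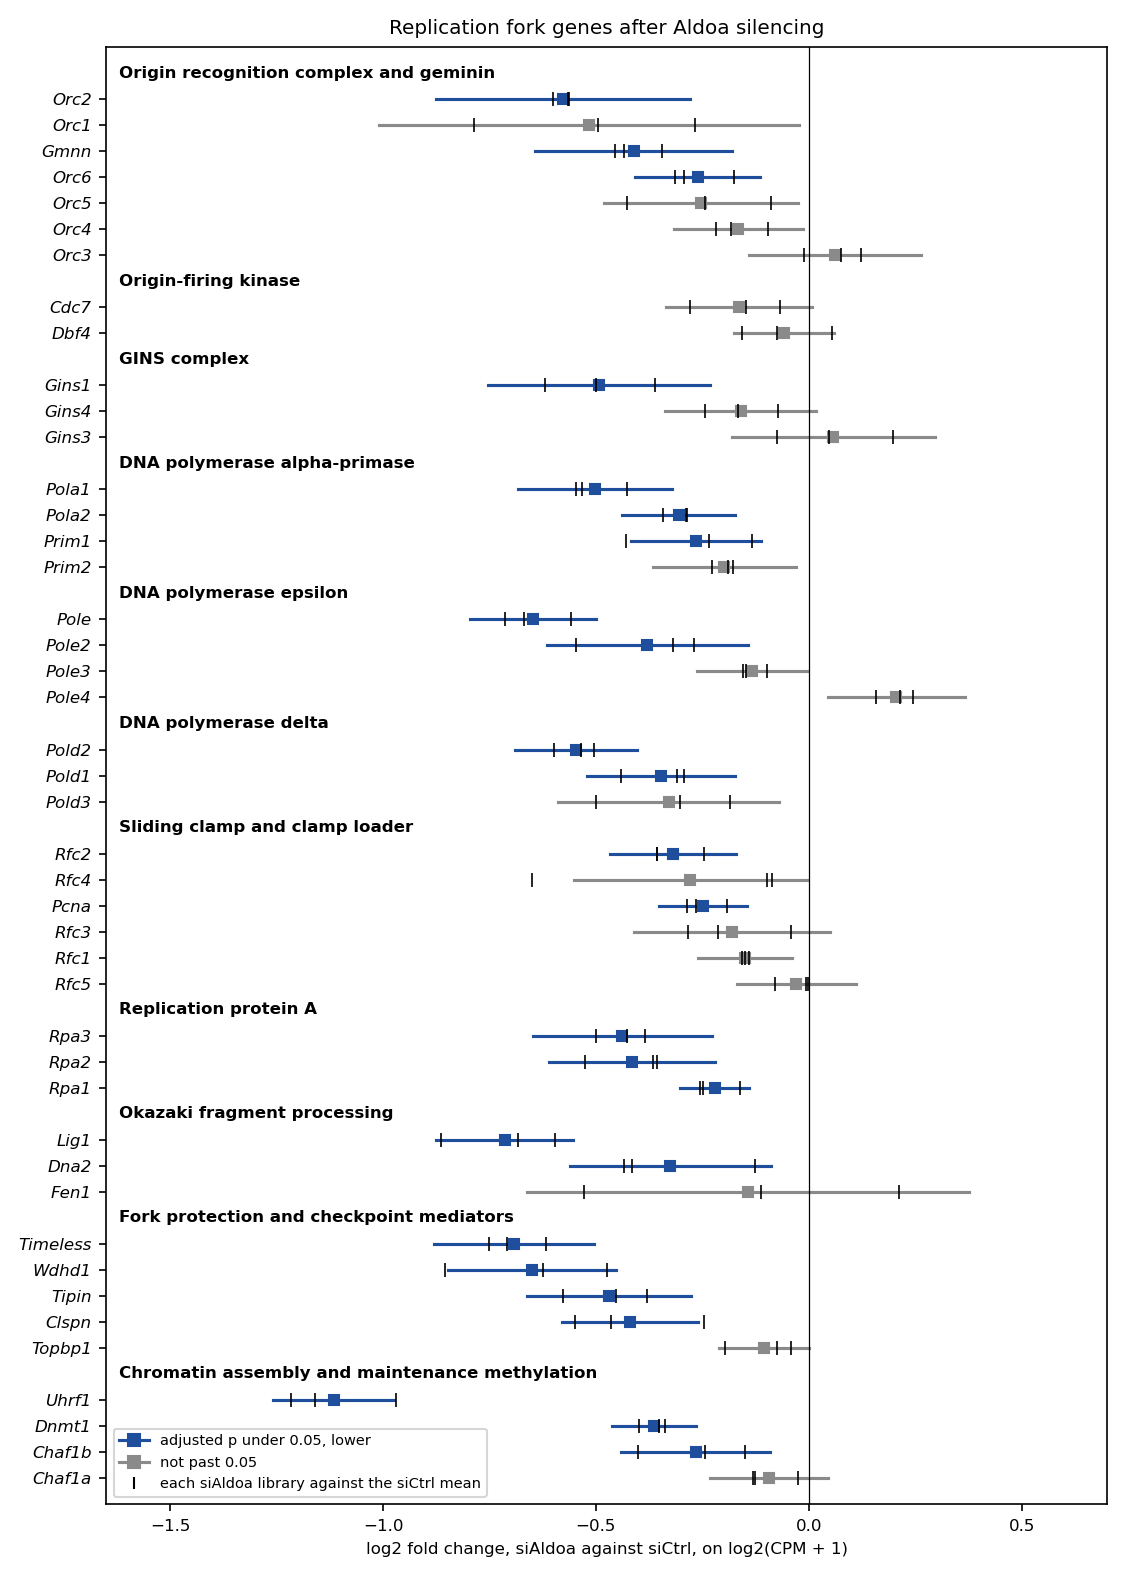
Log2 fold change of each of the 44 replication fork genes (siAldoa against siCtrl, log2(CPM + 1) scale, x axis) by role (y axis), with bars for the 95% confidence interval from limma, blue squares for genes with an adjusted p under 0.05, grey squares for the others and a black tick for each siAldoa library against the siCtrl mean. Uhrf1 lies farthest to the left at -1.12, and Orc3, Gins3 and Pole4 are the 3 genes to the right of 0.

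Because the genes share a role in S phase, the sequence around their start sites was searched for letters that E2F factors are known to prefer. The words were TTTCCCGC, TTTCGCGC, TTTGCCGC and TTTGGCGC, on both strands. RefSeq windows of GRCm38.p6, from 250 bases before to 50 bases after an annotated start, were found for 37 of the 44 genes, and Gins1, Gins4, Gmnn, Pole, Prim2, Rfc2 and Tipin had none. At least 1 of these words stood in the windows of 14 of the 37 genes (37.84%), compared to 2.605% of 27025 genes with a window and 4.262% of the 11192 that are also in the expression table. Of the genes called lower upon Aldoa knockdown 7 of 20 held a word (35.0%), and of those not called 7 of 17 (41.18%). These counts include words after the start. In Lig1, Clspn, Pole2 and Pold1, all called lower, and in Pold3, not called, the word stood only there. The word GGGCGG of the GC box stood in 72.97% of the fork genes and 62.96% of genes in the expression table, CCAAT in 48.65% and 42.99%, and TTTGAA, the word of the cell cycle homology region, in 16.22% and 15.34%. Words of different motifs may overlap in a window, and a match is a string of letters only. Shown, with the word in capitals, are the 3 stretches in which it lies before the start and outside every exon of the GENCODE annotation: Uhrf1 and Pola1, which were lower in siAldoa, and Topbp1, which did not pass the test. The Uhrf1 word begins 185 bases before a start that lies inside the gene (chr17:56304063-56304312, plus strand), the Pola1 word 138 bases before its start (chrX:93632156-93632405, minus strand) and the Topbp1 word 129 bases before its RefSeq start. The Topbp1 stretch (chr9:103305083-103305214, plus strand) ends where an exon of GENCODE begins, upstream of that RefSeq start, so its word begins 17 bases before the end of the stretch. Another Uhrf1 window, which ends at 56303336, held none of the words.
Uhrf1: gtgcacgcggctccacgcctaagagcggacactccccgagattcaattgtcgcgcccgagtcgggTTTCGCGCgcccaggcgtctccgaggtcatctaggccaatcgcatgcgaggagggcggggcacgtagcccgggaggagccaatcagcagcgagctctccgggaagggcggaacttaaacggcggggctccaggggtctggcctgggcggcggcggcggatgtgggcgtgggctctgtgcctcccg
Pola1: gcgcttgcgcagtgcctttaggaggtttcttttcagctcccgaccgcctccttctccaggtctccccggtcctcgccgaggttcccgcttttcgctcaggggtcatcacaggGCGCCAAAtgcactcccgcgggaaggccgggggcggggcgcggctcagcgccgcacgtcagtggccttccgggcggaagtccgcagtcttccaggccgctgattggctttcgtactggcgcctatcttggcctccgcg
Topbp1: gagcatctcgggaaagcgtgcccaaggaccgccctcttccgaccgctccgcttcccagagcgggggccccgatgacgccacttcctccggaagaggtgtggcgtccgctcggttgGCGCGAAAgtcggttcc

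At origins, 3 of the 7 genes for the origin recognition complex and geminin were lower in siAldoa. Orc2, a core subunit of the complex, was at 19.4, 26.8 and 19.8 CPM in siCtrl and 14.0, 14.4 and 14.4 CPM in siAldoa (log2 fold change -0.58, standard error 0.144, limma adjusted p = 0.0052). All 3 siAldoa libraries lay below the siCtrl libraries, of which replicate 2 was the highest, and without siCtrl replicate 2 the limma adjusted p of Orc2 was 0.061. Geminin (Gmnn), which blocks a second licensing of origins within a cycle, was at -0.41 (limma adjusted p = 0.0099, 0.077 without siCtrl replicate 2 and 0.065 with DESeq2). Orc6, the smallest subunit, was at -0.26 (limma adjusted p = 0.0099). The Orc6 call was lost without siCtrl replicate 3 (adjusted p = 0.081), siAldoa replicate 1 (0.060) or siAldoa replicate 2 (0.067), and with DESeq2 (0.062). Orc1, the subunit whose protein level oscillates through the cycle, was the gene of the complex with the fewest reads, at 7.67, 4.92 and 6.61 CPM in siCtrl and 3.24, 5.08 and 4.19 CPM in siAldoa. Its estimate of -0.52 had a 95% confidence interval from -1.01 to -0.02 (limma adjusted p = 0.14), and the groups overlapped. Orc5 (-0.25, adjusted p = 0.11) and Orc4 (-0.17, adjusted p = 0.12) did not pass the limma test either, although all of their siAldoa libraries lay below siCtrl. Orc3 was at 40.8, 32.8 and 36.2 CPM in siCtrl and 36.2, 38.5 and 39.8 CPM in siAldoa, overlapping groups with an estimate of 0.06 (95% confidence interval -0.14 to 0.26, limma adjusted p = 0.73).

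Neither gene of the origin-firing kinase passed the test. The catalytic subunit Cdc7 was at 58.1, 51.7 and 53.4 CPM in siCtrl and 51.8, 44.6 and 49.0 CPM in siAldoa (log2 fold change -0.16, 95% confidence interval -0.34 to 0.01, limma adjusted p = 0.18). Its activator Dbf4 was at 152, 162 and 152 CPM in siCtrl and 162, 140 and 148 CPM in siAldoa (-0.06, interval -0.18 to 0.06, limma adjusted p = 0.54). In both genes the groups overlapped. Of the GINS subunits, which join the helicase to the leading-strand polymerase, Gins1 was lower, at 24.9, 28.2 and 23.8 CPM in siCtrl and 19.7, 16.3 and 17.8 CPM in siAldoa without overlap (-0.49, standard error 0.126, limma adjusted p = 0.0061, 0.053 without siCtrl replicate 2). Gins4 was at 47.1, 46.2 and 52.6 CPM in siCtrl and 46.1, 40.9 and 43.2 CPM in siAldoa (-0.16, limma adjusted p = 0.21). Gins3 was at 24.1, 28.7 and 30.4 CPM in siCtrl and 31.8, 28.6 and 26.2 CPM in siAldoa (0.06, limma adjusted p = 0.80). The Gins4 groups touched but did not overlap, while those of Gins3 overlapped.

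Among the polymerases, the catalytic subunits of alpha and epsilon and a subunit of delta fell most. Pola1, the catalytic subunit of DNA polymerase alpha, was at 49.3, 47.3 and 52.4 CPM in siCtrl and 34.0, 33.7 and 36.7 CPM in siAldoa (log2 fold change -0.50, standard error 0.087, limma adjusted p = 1.5e-04). Its accessory subunit Pola2 was at 87.6, 95.2 and 92.9 CPM in siCtrl and 75.02, 72.2 and 75.1 CPM in siAldoa (-0.31, standard error 0.064, limma adjusted p = 0.0011). The groups were apart in both genes. Of the primase subunits, which synthesize the RNA primer, the catalytic Prim1 was lower (-0.27, limma adjusted p = 0.012) and the large subunit Prim2 was at 47.9, 49.2 and 51.6 CPM in siCtrl and 43.7, 43.3 and 42.2 CPM in siAldoa (-0.20, limma adjusted p = 0.089, and 0.045 with quantile normalization). The Prim1 call was lost without siCtrl replicate 1 (adjusted p = 0.052), siCtrl replicate 3 (0.093) or siAldoa replicate 3 (0.10), and with DESeq2 (0.060).

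DNA polymerase epsilon has 4 subunits, and they did not move alike. Pole, the catalytic subunit, was at 85.2, 88.6 and 80.7 CPM in siCtrl and 57.2, 52.9 and 51.3 CPM in siAldoa, 63.4% of the control (log2 fold change -0.65, standard error 0.072, limma adjusted p = 3.9e-07). Pole2, its essential partner subunit, was at 27.9, 30.1 and 30.7 CPM in siCtrl and 23.5, 24.3 and 19.9 CPM in siAldoa (-0.38, standard error 0.114, limma adjusted p = 0.019). All siAldoa libraries were below siCtrl for both genes, but the Pole2 call was lost without siCtrl replicate 2 (adjusted p = 0.075), siCtrl replicate 3 (0.085) or siAldoa replicate 3 (0.10), and with DESeq2 (0.11). The histone-fold subunit Pole3, which also belongs to a chromatin remodelling complex, had an estimate of -0.13 (limma adjusted p = 0.15). Pole4, its histone-fold partner, was at 49.3, 48.1 and 54.8 CPM in siCtrl and 60.2, 56.7 and 58.9 CPM in siAldoa. It was the 1 fork gene with every siAldoa library above every siCtrl library, with an estimate of 0.21 (95% confidence interval 0.04 to 0.37) that did not pass the test over all genes (limma adjusted p = 0.068, and 0.041 without siCtrl replicate 3).

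In DNA polymerase delta, Pold2, the subunit that binds the catalytic chain to the others, was at 92.0, 94.7 and 83.6 CPM in siCtrl and 61.8, 59.1 and 63.1 CPM in siAldoa (log2 fold change -0.55, standard error 0.069, limma adjusted p = 2.7e-06). The catalytic subunit Pold1 was at 51.5, 52.8 and 58.2 CPM in siCtrl and 43.99, 39.6 and 43.5 CPM in siAldoa (-0.35, standard error 0.084, limma adjusted p = 0.0039). Both were lower in every siAldoa library. Pold3, which carries a PCNA-binding tail, was at 43.3, 30.4 and 31.2 CPM in siCtrl and 27.8, 30.2 and 24.1 CPM in siAldoa (-0.33, 95% confidence interval -0.59 to -0.07, limma adjusted p = 0.066). Its siCtrl replicate 1 stood far above the other libraries, and the lowest siCtrl value was close to the highest siAldoa value. 

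**Figure D2:**
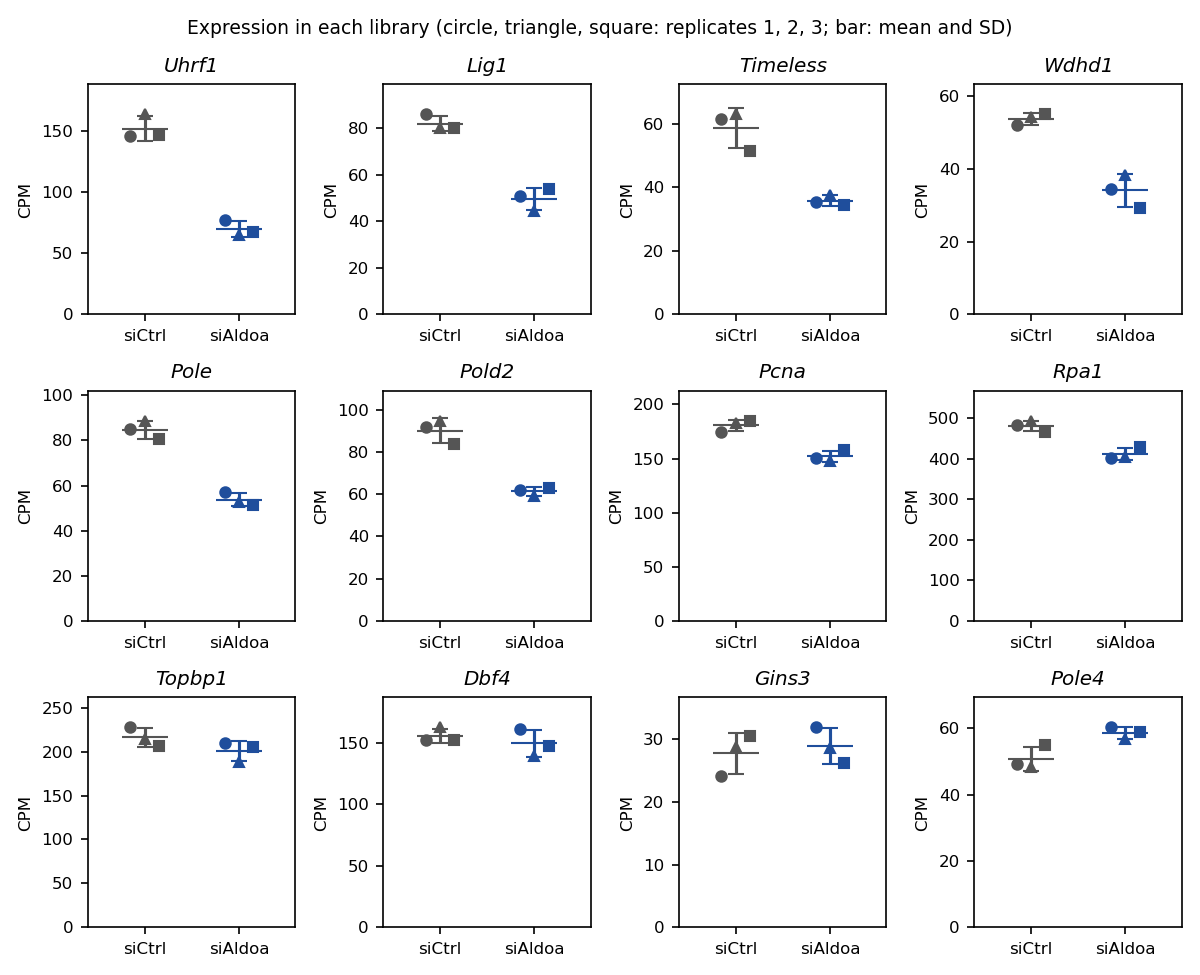
Each panel shows 1 replication fork gene with its 6 libraries as points (y axis, CPM, starting at 0) by group (x axis), with a symbol for each replicate number and bars at the mean and SD of each group. Uhrf1, Lig1, Timeless, Wdhd1, Pole, Pold2, Pcna and Rpa1 lie lower in siAldoa with no overlap, Topbp1, Dbf4 and Gins3 overlap, and Pole4 lies higher.

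For the clamp and its loader, 2 of 6 genes were lower. Rfc2, a subunit of the replication factor C loader, was at 70.1, 68.9 and 72.2 CPM in siCtrl and 54.8, 54.8 and 59.2 CPM in siAldoa (log2 fold change -0.32, standard error 0.071, limma adjusted p = 0.0020). Rfc4 was at 29.9, 28.2 and 32.5 CPM in siCtrl and 28.1, 28.3 and 18.9 CPM in siAldoa (-0.28, limma adjusted p = 0.16), with siAldoa replicate 3 well below the other libraries. Rfc5 was at 71.8, 68.7 and 72.2 CPM in siCtrl and 70.7, 70.6 and 67.0 CPM in siAldoa (-0.03, 95% confidence interval -0.17 to 0.11, limma adjusted p = 0.82). Loader subunits thus ranged from separated groups in Rfc2 to overlapping groups in Rfc4 and Rfc5. The large subunit Rfc1 had an estimate of -0.15 (limma adjusted p = 0.0503, and 0.014 without siCtrl replicate 1), and Rfc3 of -0.18 (limma adjusted p = 0.30). Pcna, the clamp, was at 175, 183 and 185 CPM in siCtrl and 150, 148 and 158 CPM in siAldoa (-0.25, standard error 0.050, limma adjusted p = 7.5e-04). Reads of Pcna can be shared with the processed copy Pcna-ps2, which matches it at 99.2% over 781 bases and had a mean of 211 CPM in siCtrl, against 181 CPM for the gene itself. The copy was lower as well (-0.28, limma adjusted p = 0.0011), and the sum of both was 404, 371 and 398 CPM in siCtrl and 332, 318 and 324 CPM in siAldoa (-0.27).

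All 3 subunits of replication protein A, the main single-strand binding complex, were lower. Rpa1, the large DNA-binding subunit, was at 482, 492 and 466 CPM in siCtrl and 402, 404 and 429 CPM in siAldoa (log2 fold change -0.22, standard error 0.039, limma adjusted p = 1.8e-04). After quantile normalization the estimate for Rpa1 was -0.11 and did not pass the test (limma adjusted p = 0.079). Rpa2, the subunit phosphorylated under replication stress, was at 44.4, 42.4 and 50.003 CPM in siCtrl and 31.3, 35.3 and 35.1 CPM in siAldoa (-0.42, standard error 0.094, limma adjusted p = 0.0022). Rpa3, the small subunit, was at 33.1, 35.0 and 36.5 CPM in siCtrl and 26.4, 25.7 and 24.4 CPM in siAldoa (-0.44, standard error 0.102, limma adjusted p = 0.0028). The groups did not overlap in any of the 3 genes. By reads assigned to the gene itself, Rpa1 was also the most expressed fork gene per length of annotated exons, at 86.1 ± 2.42 CPM per kb in siCtrl (SD, n = 3). The rank of Pcna on that scale is uncertain, since reads assigned to its copy Pcna-ps2 (mean 211 CPM in siCtrl) are left out. Pole3 (75.5 ± 8.11) and Pcna (75.3 ± 2.19) followed and did not differ beyond their spread, then Pold2 (47.5 ± 3.04) and Tipin (38.3 ± 5.88). Orc1 (1.84 ± 0.398) and Fen1 (2.30 ± 0.629) were the lowest on that scale. For Fen1 the place is uncertain, since 1909 of its 2422 exonic bases are shared with Tmem258 and reads there may not have been counted.

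In Okazaki fragment processing, Lig1, the ligase that seals the fragments, was at 86.0, 80.2 and 80.2 CPM in siCtrl and 50.7, 44.6 and 53.9 CPM in siAldoa, 60.6% of the control (log2 fold change -0.71, standard error 0.078, limma adjusted p = 3.0e-07). Dna2, a nuclease and helicase that trims long flaps, was at 28.8, 31.2 and 33.3 CPM in siCtrl and 28.3, 22.7 and 23.0 CPM in siAldoa (-0.33, standard error 0.114, limma adjusted p = 0.046). Both were lower without overlap, although siAldoa replicate 1 lay just under the lowest siCtrl library in Dna2. The Dna2 call was lost without any 1 of siCtrl replicates 1, 2 or 3 (adjusted p = 0.061, 0.13 and 0.18), without siAldoa replicate 2 (0.18) or 3 (0.17), and with DESeq2 (0.18). Fen1, the flap endonuclease, was at 5.48, 4.10 and 7.14 CPM in siCtrl and 6.48, 3.47 and 4.98 CPM in siAldoa (-0.14, 95% confidence interval -0.66 to 0.38, limma adjusted p = 0.76). It rested on 13 to 27 reads per library, and a change of the size seen for Dna2 could not be detected at this depth. In the annotation 1909 of its 2422 exonic bases are shared with Tmem258 on the opposite strand, and the use of strand in the counting is not given in the sources used here.

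Of the genes for fork protection and checkpoint mediators 4 of 5 were lower, with a median log2 fold change of -0.47, the lowest among the 11 roles. Timeless, which couples polymerase and helicase, was at 61.6, 62.9 and 51.3 CPM in siCtrl and 35.4, 37.7 and 34.3 CPM in siAldoa (log2 fold change -0.69, standard error 0.090, limma adjusted p = 4.0e-06). Wdhd1, the AND-1 protein that links polymerase alpha to the helicase, was at 52.0, 54.4 and 55.0 CPM in siCtrl and 34.5, 38.5 and 29.3 CPM in siAldoa (-0.65, standard error 0.095, limma adjusted p = 1.9e-05). The siAldoa libraries of both genes were all below siCtrl. Tipin, the partner of Timeless, had an estimate of -0.47 (limma adjusted p = 6.4e-04) and Clspn, which encodes claspin, the mediator of CHK1 activation, of -0.42 (limma adjusted p = 2.6e-04). Topbp1, an activator of the ATR kinase that also acts in origin firing, was at 227, 214 and 207 CPM in siCtrl and 210, 188 and 205 CPM in siAldoa. Its groups overlapped (-0.11, 95% confidence interval -0.21 to 0.00, limma adjusted p = 0.17).

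The largest change among the 44 genes was that of Uhrf1 (GRCm38, chr17:56303321-56323486, plus strand), which encodes the protein that recognizes hemimethylated DNA behind the fork and recruits the maintenance methyltransferase. Uhrf1 was at 145, 163 and 147 CPM in siCtrl and 76.9, 64.7 and 67.3 CPM in siAldoa, 45.8% of the control (log2 fold change -1.12, standard error 0.068, limma adjusted p = 2.9e-11). Dnmt1, the methyltransferase itself, was at 209, 200 and 202 CPM in siCtrl and 154, 159 and 161 CPM in siAldoa, 77.6% of the control (-0.36, standard error 0.048, limma adjusted p = 4.2e-06). Both genes had the groups well apart. Reads of Uhrf1 can be shared with Gm5648, which matches it at 98.3% over 1590 bases and was lower too (-1.08, limma adjusted p = 2.0e-07), and the sum of both was 200, 210 and 188 CPM in siCtrl and 96.3, 86.1 and 92.2 CPM in siAldoa (-1.12). Of the chromatin assembly factor 1 genes, Chaf1b, the middle subunit, was lower (-0.27, limma adjusted p = 0.027). The Chaf1b call was lost without siCtrl replicate 1 (adjusted p = 0.094) or 3 (0.11), without siAldoa replicate 1 (0.15) or 3 (0.074), and with DESeq2 (0.14). Chaf1a, the large subunit that binds PCNA, was at 108, 92.7 and 94.2 CPM in siCtrl and 96.3, 89.8 and 89.5 CPM in siAldoa (-0.09, limma adjusted p = 0.37), with overlapping groups. In the annotation 4648 of 8854 exonic bases of Chaf1a are shared with Ubxn6 on the opposite strand.

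To compare subunits within a library, 10 log2 ratios of CPM were formed, each of a gene to its partner or to the mean log2 level of its partners. The ratio of Pole to Pole3 and Pole4 was 0.01, 0.09 and -0.27 in siCtrl and -0.66, -0.73 and -0.83 in siAldoa, a difference of -0.68. For Pole2 against the same partners the difference was -0.42, and for Uhrf1 to Dnmt1 it was -0.75, from -0.52, -0.29 and -0.45 in siCtrl to -0.99, -1.28 and -1.24 in siAldoa. In these 3 ratios the groups did not overlap (exact permutation p = 0.1, two-sided, the smallest that 3 against 3 libraries allow, 0.333 after adjustment over the 10 ratios). The other 7 ratios overlapped between groups: differences were 0.24 for Prim1 to Pola1, 0.22 for Tipin to Timeless, 0.11 for Dbf4 to Cdc7, -0.17 for Chaf1b to Chaf1a, -0.28 for Orc1 and -0.03 for Orc6 to Orc2, Orc3, Orc4 and Orc5, and 0.05 for Rfc1 to the small loader subunits, with exact permutation p of 0.2 to 0.8. With libraries left out, these differences moved between 0.15 and 0.36 for Prim1, 0.052 and 0.39 for Tipin, 0.035 and 0.17 for Dbf4, -0.24 and -0.068 for Chaf1b, and -0.53 and -0.019 for Orc1, while those of Orc6 and Rfc1 changed sign. None of the 10 can pass a threshold of 0.05 in this design.

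**Figure D3:**
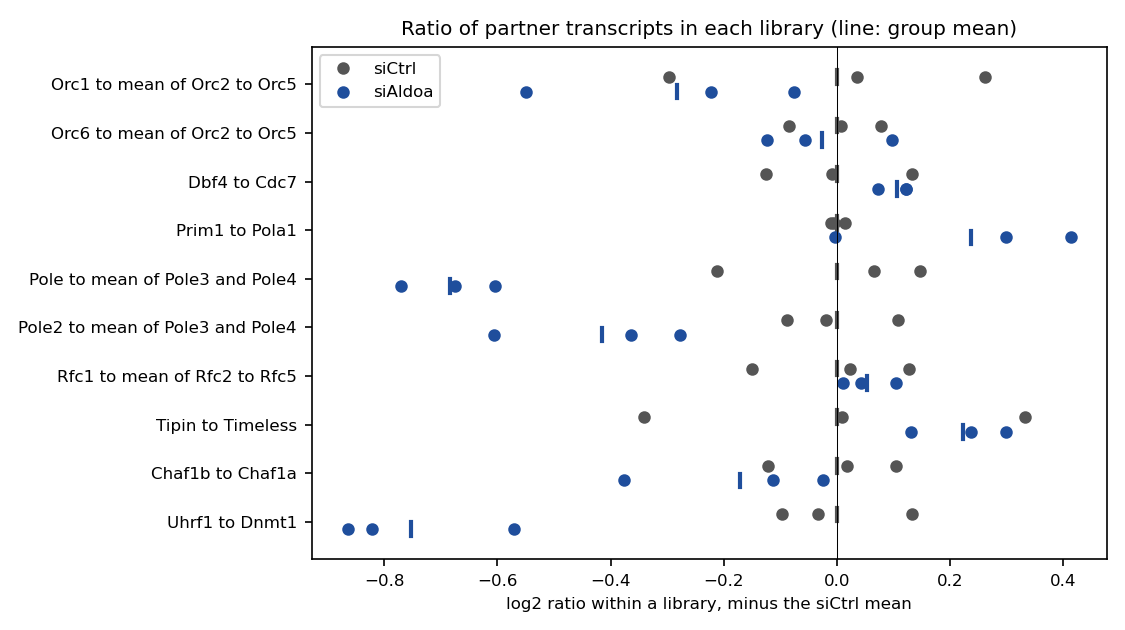
Log2 ratio of each fork gene to its partner or partners within a library (x axis), as the difference from the siCtrl mean, for 10 ratios (y axis) with 1 point per library, grey for siCtrl and blue for siAldoa, and a short line at each group mean. The siAldoa points of Pole and Pole2 to Pole3 and Pole4, and of Uhrf1 to Dnmt1, lie to the left of all siCtrl points, and the points of the other 7 ratios mix.

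Other genes of the cell cycle were set beside the fork genes in lists, each described by its count and its median. Of 30 other replication genes in the table (33 listed), including the MCM helicase, its loaders and nucleotide supply, 19 were lower and 0 higher in siAldoa (limma, 24 lower and 0 higher at an unadjusted p under 0.05, beside the 15.1% and 15.5% of all genes given above), with a median log2 fold change of -0.39. The 3 lowest were Cdc6, the helicase loading ATPase (-0.81, limma adjusted p = 5.1e-06), Rrm2, the regulated subunit of ribonucleotide reductase (-0.80, limma adjusted p = 7.1e-10), and Dscc1, a part of an alternative clamp loader (-0.71, limma adjusted p = 0.0048). Those nearest to 0 among the called were Mtbp (-0.26), lost without siCtrl replicate 2 (limma adjusted p = 0.061) or siAldoa replicate 3 (0.073), and Exo1 (-0.31), lost without siCtrl replicate 1 (0.0504), siCtrl replicate 3 (0.070) or siAldoa replicate 1 (0.075). Of 14 DNA polymerase genes that act outside the fork, in repair, lesion bypass or mitochondria, 0 were lower and 1 was higher (limma, 1 and 2 at an unadjusted p under 0.05), counts that lie near the shares of all genes. The higher gene was Polk, a lesion bypass polymerase, at 0.32 (limma adjusted p = 0.027). Its call was lost without siCtrl replicate 2 (adjusted p = 0.0504) or 3 (0.17), without siAldoa replicate 1 (0.081), 2 (0.056) or 3 (0.17), with quantile normalization (0.065) and with DESeq2 (0.12). The median of the 14 genes was -0.08. These lists share all libraries with the fork genes, and no difference between lists was tested.

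Of 25 markers of G2 and M phase, 6 were lower (24.0%) and 1 higher, with a median log2 fold change of -0.09. Over all genes 10.0% were called lower and 10.4% higher. At an unadjusted p under 0.05 (limma), 10 of the 25 were lower and 1 was higher, beside 15.1% and 15.5% of all genes. Ccnb2, a mitotic cyclin, was at -0.40 (limma adjusted p = 0.039), a call lost without siCtrl replicate 1, 2 or 3 (0.067, 0.12 and 0.095), without siAldoa replicate 1 (0.12) or 2 (0.088) and with DESeq2 (0.17). Birc5, which encodes survivin, was at -0.31 (limma adjusted p = 0.0012) and Ccna2, the cyclin of S and G2 phase, at -0.23 (limma adjusted p = 0.0039). Hmmr, a spindle protein gene, was higher at 0.16 (limma adjusted p = 0.020), a call lost without siCtrl replicate 1 (0.10) or 2 (0.055), without siAldoa replicate 1, 2 or 3 (0.061, 0.070 and 0.061) and with DESeq2 (0.091). Mki67 (-0.08, limma adjusted p = 0.20) and Ccnb1 (-0.03, limma adjusted p = 0.78) did not pass the test. The summed level of the 25 markers was 3320 to 3389 CPM in siCtrl and 3174 to 3208 CPM in siAldoa. Of 19 p53 target genes in the table, 6 were higher and 1 lower, with a median of 0.05. The unadjusted limma counts were 7 higher and 2 lower, to be read beside the same shares of all genes. Sesn1, a stress-induced regulator of growth signalling, was at 0.89 (limma adjusted p = 1.5e-07), Eda2r, a death-domain receptor, at 0.49 (limma adjusted p = 1.6e-05) and the cyclin-dependent kinase inhibitor gene Cdkn1a at 0.23 (limma adjusted p = 0.0019), while Plk2 was lower (-0.23, limma adjusted p = 1.8e-05). The part of a changed cell cycle distribution in the fork gene values was not tested.

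**Figure D4:**
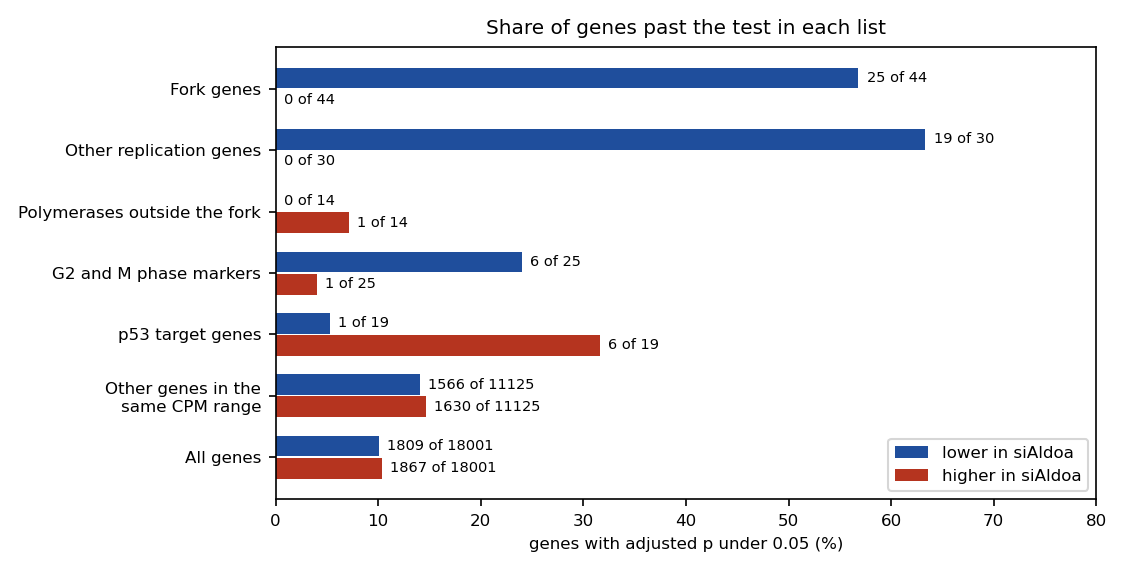
Share of genes called lower and higher in siAldoa (x axis, percent of the genes of each list in the table, limma adjusted p under 0.05) for the fork genes, 4 other lists, the other genes in the same range of mean CPM and all genes (y axis), with blue bars for lower, red bars for higher and the counts beside them. The fork genes have 56.8% lower and 0% higher, compared to 10.0% and 10.4% over all genes.

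Position and read sharing were examined for all members, since overlapping genes can pass reads to each other. Exons of 16 of the 44 genes overlap those of another annotated gene, and 9 of these 16 were called lower, as were 16 of the 28 without overlap. For Orc2, 1150 of 3857 exonic bases are shared with Nif3l1 on the opposite strand, whose own estimate was -0.15 (limma adjusted p = 0.29), and for Rfc2, 952 of 6303 bases with Lat2, which was at 1.86 to 2.43 CPM on group means. Lig1 shares 247 of 4268 exonic bases with Zswim9 on the opposite strand, and the values of that gene were not examined. Gmnn has a copy, Gm6510, that matches at 93.5% over 491 bases (-0.31, limma adjusted p = 0.28). In all, 18 members had a near-identical stretch in another gene, some of them through exon overlap. Among the 18 were Wdhd1 (Gm17052, 99.7% over 289 bases), Timeless and Pola1, and the values of their partners were not examined. The values of genes with any such partner are therefore less certain than those of genes without one. Across the 44 genes the log2 fold change was little related to the mean log2 level (Pearson 0.10, Spearman 0.21), a description over genes that share libraries and are not independent replicates.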

How the data were processed

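Poly(A) RNA was measured in 6 libraries. The authors extracted RNA with the RNeasy kit, prepared directional libraries, aligned reads to mm10 with Bowtie2 (version 2.2.7), drew equal numbers of them per sample, counted reads by gene, and deposited CPM scaled to an effective library size for 18001 genes. A second deposited table holds the authors' own fold changes and p-values and was not used. ERCC spike-ins were handled differently for replicate 1 than for replicates 2 and 3. The annotation, the use of strand and the treatment of multi-mapping reads are not given in the sources used here. The methods name a minimum of 12 reads, and 1834 genes in the table had fewer.

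Every deposited CPM was a whole multiple of 1 read (100% of values, tolerance 0.01), so reads were recovered. These are PCR reads without molecular identifiers, and what depth says of precision holds for counting error alone. Groups were taken from the sample labels and compared in R (version 4.3.3) by limma (version 3.58.1) on log2(CPM + 1) values, with a trend of variance on mean, two-sided and Benjamini-Hochberg adjusted, a scale that understates changes of genes with few reads. The labels give replicate numbers only, the paper calls the replicates biological, and p-values measure the spread between these libraries. Of these, replicates 1 and 2 of each group differed by little more than counting error. edgeR (version 4.0.16) and DESeq2 (version 1.42.0) on recovered reads, other scalings, a pseudocount of 0.1, a filter on low genes and omitted libraries were alternatives. The fits were also run on simulated counts, drawn with the same setting of spread for every gene and no shift of replicate 3. No result here rests on that run. Exon overlaps and near-identical transcripts (at least 90% over 200 bases) came from GENCODE M21 (GRCm38), in which 17932 identifiers were found, and promoter windows from RefSeq.

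The members and lists were chosen with earlier results of these data known. Every member is named. Library values are given for the 2 lowest and the highest gene of each role and for all genes of roles with up to 3. In other lists, up to 3 of the lowest and 2 of the highest called genes were named, with Ccnb1, Mki67 and Cdkn1a. Library values of Pcna were added after seeing its copy.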

Additional observations from a re-analysis of the deposited data

How the results depend on the processing

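Over the 19 alternatives, the 25 called fork genes kept their direction in every fit, with 389 gene and fit combinations on the same side of the threshold and 86 no longer past it. Without the trend of variance on mean 616 genes were lower and 824 higher, with 11 fork genes lower, 0 polymerases outside the fork higher, 1 G2 and M marker lower and 0 higher, and 0 p53 targets lower and 3 higher. DESeq2 called 1117 genes lower and 1066 higher, 0 polymerases outside the fork higher, and 3 G2 and M markers lower and 0 higher. The polymerases called higher were 2 with low genes left out and 0 after quantile normalization. With replicates 1 and 2 averaged, an alternative added after seeing the data, 25 fork genes were lower and 0 G2 and M markers higher. The fork median was then -0.32 and Gins3 was at -0.011. The cause of these differences was not tested.

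With libraries left out, 520 to 1371 genes were lower and 494 to 1464 higher, 9 to 23 fork genes lower and 0 to 1 higher (Pole4), with a fork median of -0.32 to -0.26. The genes near 0 changed sign: Dbf4 (-0.13 to 0.021), Fen1 (-0.32 to 0.050), Gins3 (-0.11 to 0.19), Orc3 (-0.019 to 0.18) and Rfc5 (-0.064 to 0.0088), as did the ratios of Orc6 (-0.089 to 0.025) and Rfc1 (-0.022 to 0.12). Other replication genes lower were 12 to 19, polymerases outside the fork higher 0 to 1, G2 and M markers lower 0 to 4 and higher 0 to 1, and p53 targets higher 2 to 5. Omitting libraries leaves fewer samples for each fit. Depth limits Fen1, whose 95% interval runs from -0.66 to 0.38.

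The shared replicate numbers were checked as a pairing. Same-numbered libraries deviated from their group means with correlations of 0.040, 0.040 and 0.207 over 8271 genes for replicates 1, 2 and 3. Because siCtrl replicate 2 correlated best with siAldoa replicate 1 (0.125), the numbers were not taken to pair the samples one by one. Between groups, replicates 1 and 2 correlated at 0.040 to 0.125 in every combination. Replicate 3 of either group correlated at -0.154 to -0.079 with replicates 1 and 2 of the other. A fit that sets only replicate 3 apart was not run. With the replicate block, limma called 1559 genes lower and 1611 higher, 23 fork genes lower (without Chaf1b and Dna2) and 0 polymerases outside the fork higher.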
